A study of Mus musculus with 72 samples.

Results

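CD8+ T cells activated for 48 h with their antigen in the presence of drug vehicle were compared with unstimulated CD8+ T cells, in 8 of the 52 RNA-seq libraries of a series of 72 samples. The libraries were taken by their titles: vehicle 48 h A to D, and unstimulated A to D. All genes with enough counts in the unstimulated or vehicle libraries were tested, 18317 of the 55487 in the count table. Both groups came from OT-I mice, whose transgenic T cell receptor binds SIINFEKL, a peptide of ovalbumin, on MHC class I, as splenocytes freed of red cells by lysis and held in RPMI medium with serum and glutamine. The vehicle 48 h group received SIINFEKL at 10 ng/mL and recombinant human IL-2 at 100 IU/mL, with the solvent of the drugs used elsewhere in the series. The labels name DMSO and PBS as solvents and give a single vehicle group. The unstimulated group carries the same vehicle label, and its time in culture is not given, so peptide, IL-2 and time in culture cannot be told apart. The labels call every sample a CD8+ T cell and describe no sort before RNA was taken. Separate mice or cultures are not stated for the 4 libraries of each group, so the p-values measure the spread between these libraries, which may be technical.

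A naive CD8+ T cell is small, divides rarely and moves between blood and lymphoid tissue under the control of quiescence factors such as KLF2 and FOXO1. Binding of peptide on MHC class I by its receptor, together with costimulation and IL-2, switches on immediate early transcription factors and MYC. The cell then enlarges, changes its nutrient uptake and metabolism, divides repeatedly and makes the granule proteins and cytokines of a cytotoxic effector, while the genes that hold a resting cell in circulation are turned down.

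The vehicle 48 h libraries held 44.7, 41.7, 35.4 and 35.5 M counts assigned to genes (A to D), and the unstimulated libraries held 48.3, 41.2, 39.4 and 32.6 M. Vehicle 48 h library C stood apart from its group, with 8.42% of counts in genes for cytosolic ribosomal proteins against 4.79 to 5.56% in A, B and D. Unstimulated library D stood apart in its number of genes at 1 CPM (counts scaled to a common library total) or more, 15209 against 13030 to 13347 in A, B and C. Without both libraries 15385 genes changed, close to the 15277 with them. The CD8 T cell label was checked against 10 markers, all detected in every library. Cd8a, a chain of the CD8 coreceptor, had 629, 636, 606 and 625 CPM in vehicle 48 h libraries and 1119.8, 1103, 1071 and 1094 CPM in unstimulated libraries. Cd4 did not exceed 0.179 CPM in any of the 8. Reads were counted without regard to strand, so genes that share over 20% of their exonic length with another gene are called overlapping where they are named, and their values are uncertain.

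Activation reached most of the transcriptome. At a Benjamini-Hochberg adjusted p under 0.05 in edgeR's quasi-likelihood test, 15277 genes changed, which is 83.4% of those tested. In vehicle 48 h cells 7022 genes rose (38.3%) and 8255 fell (45.1%), and 3040 did not pass the test. A rise of at least 2-fold was called for 4342 genes (23.7%) and of at least 4-fold for 1787 (9.76%). A fall of at least 2-fold was called for 6076 genes (33.2%) and of at least 4-fold for 3795 (20.7%). The CPM of all 4 vehicle 48 h libraries lay above all 4 unstimulated ones for 6427 genes (35.1%) and below them for 7628 (41.6%). Over all tested genes the median log2 fold change was −0.163 with TMM scaling, and it was −0.439 when libraries were scaled by their totals alone. Falls were more numerous than rises, but the genes that rose held more of the counts after activation. They held 66.8% of vehicle 48 h counts and 32.9% of unstimulated counts, while the genes that fell held 19.8% of vehicle 48 h counts and 50.7% of unstimulated counts. Among protein-coding genes 5781 rose and 5515 fell of 13279 tested, whereas among long noncoding RNAs 139 rose and 664 fell of 983. In bulk RNA, fewer cells of a type and less RNA per cell cannot be told apart. In the sentences that follow, ± is an approximate SE of a log2 fold change (vehicle 48 h over unstimulated) or the SD of 4 libraries for a level. The approximate SE is the absolute log2 fold change divided by the square root of the quasi-likelihood F. It is rough where a group holds few counts. The CPM of a gene is scaled by TMM, edgeR's trimmed mean of M values.

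The steepest rises included a transcription factor, a cytokine receptor chain and a granule protease. Batf3, which encodes a basic leucine zipper factor that pairs with JUN proteins, had 180.0, 158, 291 and 174 CPM in vehicle 48 h libraries A to D, against 0.0183, 0.0211, 0.0678 and 0.0516 CPM in unstimulated libraries (log2 fold change 12.26 ± 0.38, edgeR adjusted p = 5.04e-15). The unstimulated libraries held 7 counts of Batf3 in total, so the size of its fold is uncertain. Il2ra, the alpha chain of the high-affinity IL-2 receptor, had 1106, 1178, 817 and 1034 CPM against 1.43, 1.73, 1.74 and 1.81 CPM (9.28 ± 0.14, edgeR adjusted p = 1.68e-19). Gzmb, the granule protease granzyme B, had 5178, 5331, 6141 and 4599 CPM against 11.4, 17.9, 16.8 and 11.4 CPM (8.53 ± 0.19, edgeR adjusted p = 1.18e-17). In all 3 genes every vehicle 48 h library lay above every unstimulated one, and library C was the highest of its group for Batf3 and Gzmb and the lowest for Il2ra. The other 9 of the 12 largest rises, among genes that averaged at least 3 on the log2 CPM scale, were Lrrc32 (22.7 ± 1.62 CPM in vehicle 48 h libraries and 0.0151 ± 0.0200 CPM in unstimulated libraries), which tethers latent TGF-beta to the cell surface, Zbtb32 (9.11), a transcriptional repressor, Cth (8.37) of cysteine synthesis, Bcat1 (8.05), a branched-chain aminotransferase, Cd80 (7.89), a ligand of CD28 and CTLA4, Galnt3 (7.72), which starts O-linked glycans, Tg (7.23), the thyroglobulin gene, Tnfrsf8 (7.07), which encodes CD30, and Serpine2 (6.87), a protease inhibitor.

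The steepest falls were of 2 kinds. Genes of antibody-secreting cells and red cells made up 8 of the 12: Ighg2b, Iglc1, Iglc2, Ighg2c, Ighg1, Igkc and Jchain of immunoglobulin, and the carbonic anhydrase gene Car1. Igkc had 0.375, 0.50, 1.33 and 0.665 CPM in vehicle 48 h libraries and 424, 320.0, 493 and 369.7 CPM in unstimulated libraries (−9.18 ± 0.32, edgeR adjusted p = 4.58e-14). The immunoglobulin constant genes are near copies of each other in part, so the split of reads between them is uncertain. The water channel gene Aqp1, expressed by red cells among other cell types, had 0, 0, 0.0925 and 0 CPM in vehicle 48 h libraries and 26.4, 21.96, 37.9 and 20.3 CPM in unstimulated libraries. The remaining falls were of Cd7, Ccr9 and Ifi213. Cd7, a surface glycoprotein of T cells, had 0.0703, 0.10, 0.0925 and 0.116 CPM in vehicle 48 h libraries against 179.8, 152, 182 and 149 CPM in unstimulated libraries (−10.74 ± 0.18, edgeR adjusted p = 4.05e-19), Ccr9 (overlapping), a gut-homing chemokine receptor, changed by −9.41, and Ifi213, an interferon-inducible gene, by −8.69. The groups were far apart in each, with the highest vehicle 48 h value of Cd7 at 0.116 CPM and the lowest unstimulated value at 149 CPM.

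**Figure D1:**
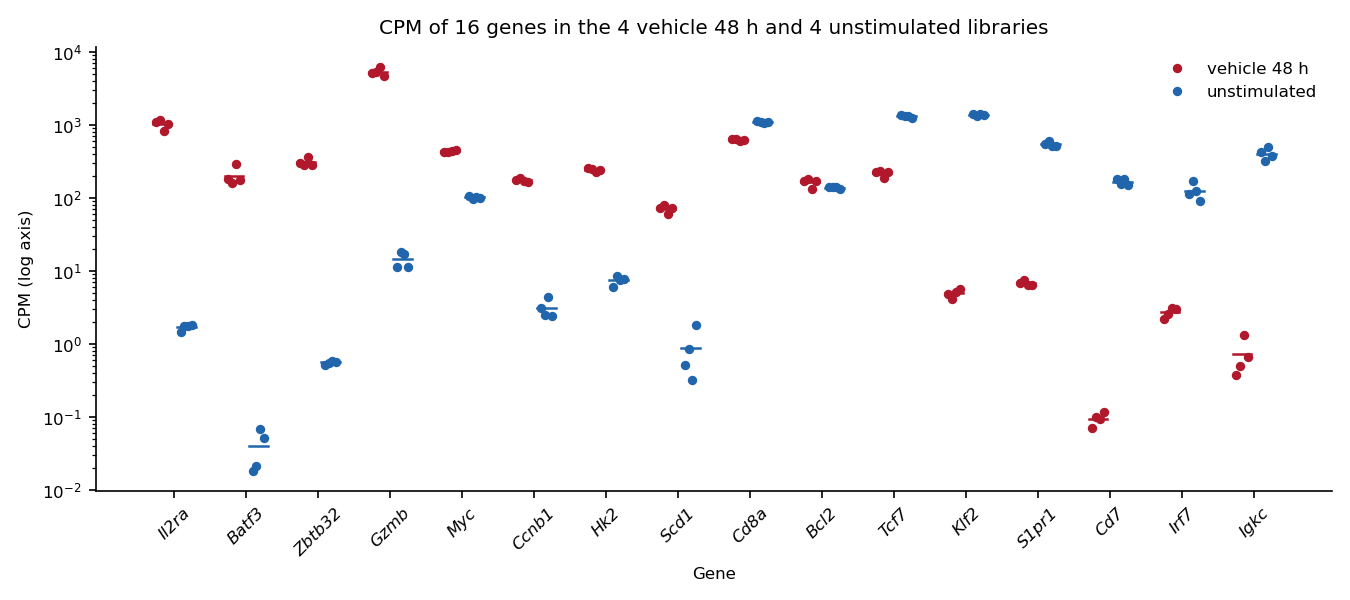
CPM on a log axis of 16 genes in the 4 vehicle 48 h libraries (red) and the 4 unstimulated libraries (blue), with a line at each mean. For Il2ra the red points lie between 817 and 1178 CPM and the blue points between 1.43 and 1.81 CPM, whereas for Bcl2 the groups meet.

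Where the counts themselves went shows another side of the response. Gzmb gained more CPM than any other gene (5298), followed by the chaperone Hsp90ab1 with 7660.5 ± 331 CPM in vehicle 48 h libraries and 2400.0 ± 172 CPM in unstimulated libraries. Next came the nucleolar protein Ncl, lactate dehydrogenase Ldha, actin Actb and pyruvate kinase Pkm, and then Npm1, Eif5a, Atp5b, Aldoa, Tubb5 and Ybx1. These are genes of ribosome assembly, translation, glycolysis, ATP synthesis and the cytoskeleton. On the side of the losses stood MHC class I (H2-K1 at 1572 ± 295 CPM in vehicle 48 h libraries and 3800.2 ± 250.2 CPM in unstimulated libraries, and H2-D1) and Tnfaip3, the A20 brake on NF-kB signaling. Tnfaip3 had 22.8, 22.4, 21.6 and 23.9 CPM in vehicle 48 h libraries against 2228, 2132, 2209.9 and 2087 CPM in unstimulated libraries (−6.58 ± 0.09, edgeR adjusted p = 3.30e-20), and the groups did not come near each other. Arhgap45 (−3.09), Arhgef1 (−2.02), Myh9 (−1.16) and Macf1 (−2.40) of the cytoskeleton and its small GTPases also lost much, as did the antiproliferative Btg1 (−4.21), the thioredoxin-binding Txnip (−4.31) and, by smaller folds, Rps3 (−0.56) and Eef1a1 (−0.33), of which Eef1a1 did not pass the test without the low-count filter (−0.15).

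The machinery of antigen recognition was lower in vehicle 48 h cells while costimulatory molecules were higher. Of 20 genes of the T cell receptor and its proximal signaling, 16 fell and 2 rose (median log2 fold change −0.84, against 45.1% and 38.3% of all genes). The falls were modest: 3 reached 2-fold. Plcg1, the phospholipase that starts calcium release, had 110.0 ± 4.20 CPM in vehicle 48 h libraries and 349 ± 12.8 CPM in unstimulated libraries (−1.66 ± 0.06), Cd8b1 changed by −1.45, the phosphatase Ptpn22 by −1.31, the kinase Lck by −0.97 and Cd3g by −0.96. Ubash3a, a phosphatase that dampens receptor signals, rose (0.85). Of 16 costimulatory receptors and ligands, 11 rose, each by at least 2-fold, and 4 fell (median 2.42). Cd80 had 58.7, 62.9, 68.3 and 60.6 CPM in vehicle 48 h libraries and 0.201, 0.274, 0.226 and 0.361 CPM in unstimulated libraries (7.89 ± 0.16, edgeR adjusted p = 4.29e-18). The TNF receptor family members Tnfrsf9 (4-1BB, 5.92) and Tnfrsf4 (OX40, 5.05) and the ligands Tnfsf4 (5.84) and Tnfsf11 (2.68) rose with it. The members that fell were Cd40lg (−2.20), Cd226 (−1.14), Cd27 (−0.74) and Cd86 (−2.78), a ligand that B cells and myeloid cells also carry.

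Of 28 activation transcription factors, 12 were higher at 48 h and 15 lower (median −0.27), near the shares of all genes (38.3% and 45.1%). Beside Batf3 and Zbtb32, the interferon regulatory factor genes Irf4 and Irf8 were higher. Irf4, whose level follows receptor signal strength, had 506, 533, 403 and 492 CPM in vehicle 48 h libraries and 18.3, 31.1, 17.5 and 13.4 CPM in unstimulated libraries (4.59 ± 0.19, edgeR adjusted p = 1.45e-13), and Irf8 changed by 4.68. Bhlhe40 (2.58), Spry1 (overlapping, 2.96) and Myc (2.10) also rose. In contrast, members of the AP-1 family that mark the first hours of a response were below the resting level: Jun had 33.3 ± 3.68 CPM in vehicle 48 h libraries and 619 ± 67.0 CPM in unstimulated libraries (−4.22 ± 0.13), and Fosl2 had 12.1 ± 1.19 and 201 ± 26.9 CPM in these groups (−4.06 ± 0.11).

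Most receptors for cytokines fell, while both chains of the IL-12 receptor and the alpha and beta chains of the IL-2 receptor rose. Of 24 cytokine receptor genes 18 fell and 6 rose (median −1.22). Il6ra (−4.51) and the shared signal chain Il6st (−3.26) of the IL-6 receptor, the interferon gamma receptor chain Ifngr2 (−4.13) and the IL-7 receptor Il7r (−2.38) were lower. The IL-12 receptor chains Il12rb1 and Il12rb2 (overlapping) were higher by 3.63 and 5.34. Beside Il2ra, the IL-2 receptor beta chain Il2rb rose (1.21), but the gamma chain Il2rg (overlapping), shared with other cytokine receptors, fell (−0.95). Il12rb1 had 163, 153, 187 and 168 CPM in vehicle 48 h libraries and 13.1, 17.3, 12.97 and 10.8 CPM in unstimulated libraries (edgeR adjusted p = 1.16e-15), with no overlap between the groups. Cytokine and chemokine genes were mostly higher, 15 up and 5 down of 26 tested (median 1.75), although a fit of the 8 compared libraries alone called 9 of them up. Lif (6.27), Lta (5.59) and the chemokine gene Ccl3 (4.999) led among the expressed ones. Ccl5 fell to 2.63 ± 0.920 CPM in vehicle 48 h libraries, against 55.7 ± 6.64 CPM in unstimulated libraries (−4.42 ± 0.17), and Ltb (−1.63) and Ccl9 (−1.61) were lower too.

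Granule genes divided between the granzymes. Of 19 tested, 10 rose and 8 fell (median 0.29, against 38.3% and 45.1% of all genes). Gzmb reached 7884 ± 621 TPM (a level per length, scaled to a common total) in vehicle 48 h libraries and 24.2 ± 5.75 TPM in unstimulated libraries. Stx11 (3.44), a syntaxin of granule release, and Gzmf, at 0.848 ± 0.304 CPM in vehicle 48 h libraries and 0.0129 ± 0.0258 CPM in unstimulated ones, rose with it. Gzma, granzyme A, went the other way with 1.03, 0.625, 1.08 and 0.955 CPM in vehicle 48 h libraries and 7.08, 8.63, 10.96 and 11.1 CPM in unstimulated libraries (−3.36 ± 0.27, edgeR adjusted p = 1.13e-09), and Gzmk (−4.02), Gzmm (−2.73) and the protease gene Ctsw (−2.97) fell. Natural killer cell markers moved in the same libraries: 6 of 8 tested fell, Gzma itself and Eomes among them, and Klrk1 rose, which activated CD8 cells also express (69.4 ± 8.14 CPM in vehicle 48 h libraries and 9.71 ± 1.23 CPM in unstimulated libraries). With Klrk1 the list held 0.00753 to 0.00957% of counts in vehicle 48 h libraries and 0.00532 to 0.00595% in unstimulated libraries. Ncr1, which defines these cells, had 0.00771 ± 0.0154 CPM in vehicle 48 h libraries and 0.235 ± 0.136 CPM in unstimulated libraries. Their part in the fall of Gzma, Gzmk and Gzmm was not tested.

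Genes of the naive and memory state fell almost as a group, 22 of 24, of which 19 by at least 2-fold (median −2.26, against 33.2% of all genes). Klf2, a quiescence factor that drives lymph node homing, had 4.80, 4.13, 5.15 and 5.58 CPM in vehicle 48 h libraries and 1386, 1312, 1414 and 1376 CPM in unstimulated libraries (−8.13 ± 0.19, edgeR adjusted p = 3.50e-17). S1pr1, a target of KLF2 that lets T cells leave lymphoid tissue, had 6.75, 7.53, 6.47 and 6.28 CPM in vehicle 48 h libraries and 548, 599.8, 504 and 512 CPM in unstimulated libraries (−6.32 ± 0.16, edgeR adjusted p = 4.72e-17). Both genes were under 10 CPM in all 4 activated libraries and varied little among the resting ones. Dtx1 (−6.49), Nsg2 (−5.43) and Cd7 fell alongside. Tcf7, the factor TCF1 of naive and stem-like cells, fell to 216 ± 18.5 CPM in vehicle 48 h libraries, against 1313 ± 48.6 CPM in unstimulated libraries (−2.60 ± 0.09), and remained well expressed, as did the lymph node receptor Ccr7 at 244 ± 14.6 CPM in vehicle 48 h libraries and 832 ± 55.7 CPM in unstimulated libraries (−1.77 ± 0.11). The exceptions were Id3 (0.57 ± 0.15) and Bcl2 (0.25 ± 0.08), and with library totals as the scale neither passed the test, at 0.29 for Id3 and −0.02 for Bcl2.

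Among effector differentiation factors 6 of 23 rose and 14 fell (median −0.52, against 38.3% and 45.1% of all genes). Tbx21, which encodes T-bet, the driver of type 1 effector genes, had 108, 108, 128 and 113 CPM in vehicle 48 h libraries and 6.86, 9.35, 8.74 and 8.21 CPM in unstimulated libraries (3.78 ± 0.10, edgeR adjusted p = 4.85e-17). The adhesion receptor Cd44, a standard mark of antigen experience, rose by 2.56 ± 0.10, and Prdm1 (Blimp1) by 1.00 ± 0.18 to 4.29 ± 1.05 CPM. Cx3cr1, a marker of terminal effector cells in vivo, was low throughout and fell, with 0.184 ± 0.112 CPM in vehicle 48 h libraries and 2.01 ± 0.582 CPM in unstimulated libraries (−3.37), and Klrg1, another such marker, changed by −4.55. The transcription factor genes Runx1 (−4.11), Maf (−3.83), Bcl6 (−3.22) and Id2 (−1.55) fell too.

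Inhibitory receptors and feedback inhibitors of cytokine signaling were divided, 10 higher and 8 lower of 20 (median 0.45, and 0.29 without vehicle 48 h C and unstimulated D together). Over all genes 38.3% were higher and 45.1% lower. Pdcd1, which encodes PD-1, had 55.6, 57.2, 56.2 and 59.7 CPM in vehicle 48 h libraries and 0.567, 0.421, 0.655 and 0.490 CPM in unstimulated libraries (6.73 ± 0.12, edgeR adjusted p = 4.53e-19). Lag3 (6.67), Ctla4 (3.93), Pdcd1lg2 (4.28) and the STAT5-induced Socs2 (5.95) and Cish (4.37) were higher. Vsir, the gene of the inhibitory receptor VISTA on resting T cells, fell to 36.6 ± 3.21 CPM in vehicle 48 h libraries, against 424 ± 12.2 CPM in unstimulated libraries (−3.54 ± 0.08), and Socs3 (−3.13) and the ectoenzyme gene Nt5e (−2.49) were lower. In the list of trafficking and adhesion genes 9 of 26 rose and 15 fell (median −0.82, against 38.3% and 45.1% of all genes). Itgae, the integrin CD103, had 1.41, 0.900, 0.986 and 1.01 CPM in vehicle 48 h libraries and 169, 167, 166 and 157 CPM in unstimulated libraries (−7.24 ± 0.12, edgeR adjusted p = 3.43e-19). The chemokine receptor gene Cxcr4 (−4.83) and the receptor gene Gpr183 (−4.02) fell with it. In contrast, the chemokine receptors Ccr4 (5.54), Ccr8 (5.07) and Cxcr3 (2.33), P-selectin Selp (4.20) and the integrin chain Itgb1 (2.64) rose.

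**Figure D2:**
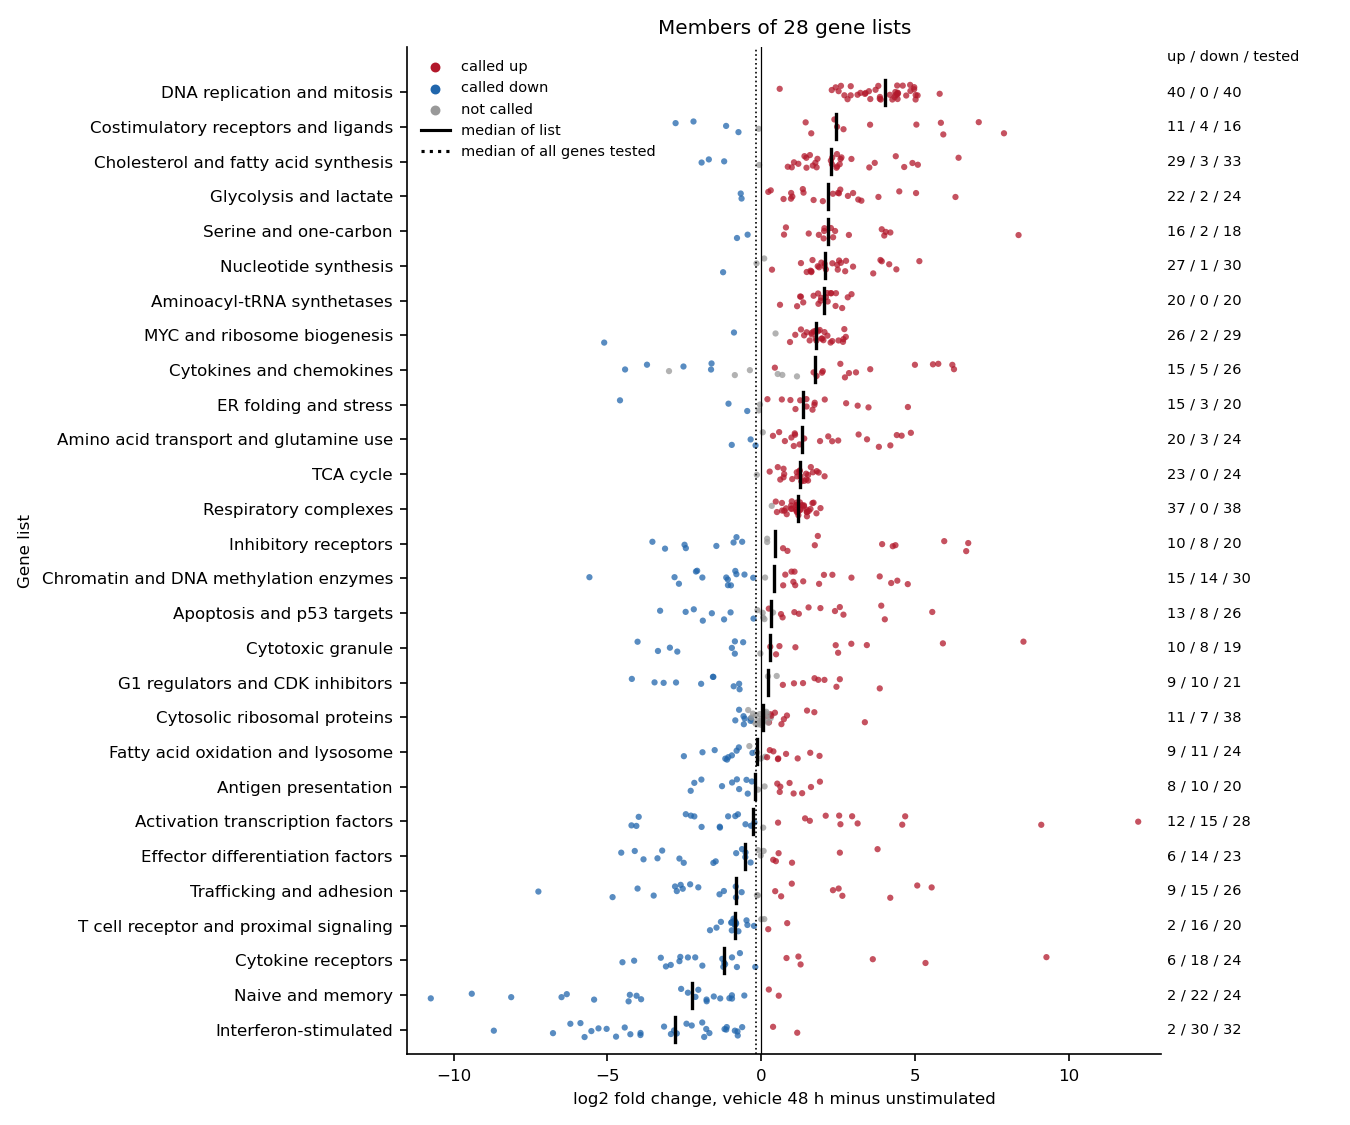
Log2 fold change, vehicle 48 h minus unstimulated, of each tested member of 28 gene lists, with called members in red (up) and blue (down), others in grey, the list median as a bar and the median of all genes tested as a dotted line. Replication, biosynthetic and metabolic lists lie at the top with medians of 4.04 to 1.19. The costimulatory (2.42), cytokine and chemokine (1.75) and endoplasmic reticulum (1.37) lists lie among them. Naive, cytokine receptor and interferon lists lie at the bottom with medians of −1.22 to −2.79.

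Growth genes rose as blocks. Of 29 tested genes of MYC and ribosome biogenesis 26 rose and 2 fell (median 1.80), of which 25 rose by at least 2-fold (23.7% of all genes). Myc had 429, 428, 434 and 450.3 CPM in vehicle 48 h libraries and 107, 96.9, 104 and 99.1 CPM in unstimulated libraries (2.10 ± 0.08, edgeR adjusted p = 5.17e-15), with the 4 libraries of each group close together. Nucleolar and processing factors followed, with Pa2g4 (2.75), Ncl (2.70), Nop2 (2.68), Nolc1 (2.66) and Npm1 (2.51) within a narrow range. The 2 genes that fell encode MAX-binding antagonists of MYC. Mxd4 had 2.93, 3.28, 3.42 and 5.03 CPM in vehicle 48 h libraries and 122, 128, 123 and 128 CPM in unstimulated libraries (−5.10 ± 0.18, edgeR adjusted p = 5.23e-15), and Mnt changed by −0.88. All 20 aminoacyl-tRNA synthetase genes, which charge tRNAs with amino acids, rose (median 2.03), 19 of them by at least 2-fold, from Aars (2.94) and Iars (2.82) downward. Cytosolic ribosomal protein genes, in contrast, showed no common direction: 11 rose, 7 fell and 20 did not pass the test of 38 (median 0.04). Library C, whose share of counts in such genes was 8.42%, moved this result: without it 10 rose and 19 fell (median −0.25), without it and unstimulated library D 8 rose and 21 fell (−0.31), and with library totals as the scale 5 rose and 20 fell. Its part in the result beyond these values was not tested. Rps27l (3.37 ± 0.10), a p53-induced paralog of Rps27, stood apart from the list, and reads of ribosomal protein genes can be shared with their many pseudogenes.

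The promoters of Mxd4 and Iars are shown because they belong to the strongest opposed member and to a leading synthetase gene, and because each holds a short sequence tied to its pathway. Both were taken from RefSeq (GRCm38.p6), from 250 bases before to 50 bases after the annotated start, 5′ to 3′ on the gene's strand. In Mxd4 (chr5:34187661-34187960, minus strand) the capitals mark the E-box CACGTG, the palindrome that MYC and MXD proteins bind with MAX, and in Iars (chr13:49681880-49682179, plus strand) they mark TTGCATC, the core of the CARE element bound by ATF4. The Iars sequence also holds CACGTG, left in lower case, so the E-box is not particular to Mxd4.
Mxd4: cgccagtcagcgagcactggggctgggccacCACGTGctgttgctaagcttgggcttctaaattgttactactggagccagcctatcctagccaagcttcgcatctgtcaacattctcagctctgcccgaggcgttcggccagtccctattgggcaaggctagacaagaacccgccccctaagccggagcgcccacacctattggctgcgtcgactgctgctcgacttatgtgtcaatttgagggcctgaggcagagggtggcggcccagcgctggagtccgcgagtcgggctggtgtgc
Iars: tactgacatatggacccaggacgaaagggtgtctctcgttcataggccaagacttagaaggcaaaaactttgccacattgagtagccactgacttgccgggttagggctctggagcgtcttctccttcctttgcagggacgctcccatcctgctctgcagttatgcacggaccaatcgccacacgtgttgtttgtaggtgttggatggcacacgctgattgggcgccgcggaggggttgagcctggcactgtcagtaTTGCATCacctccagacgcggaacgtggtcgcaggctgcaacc
CACGTG was found in 7.16% of the 27025 promoters of the table, in 9.72% of the 11323 that matched tested genes and in 7 of the 25 (28%) that matched the MYC and ribosome biogenesis list. TTGCATC, searched on both strands, was found in 2.49% of all promoters, in 2.02% of those of tested genes and in 4 of the 12 that matched the synthetase list. Both starts lay under a vehicle 48 h peak of H3K27ac, a histone mark of active promoters and enhancers, although the RNA of Mxd4 fell and that of Iars rose.

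Every one of 40 DNA replication and mitosis genes rose in vehicle 48 h cells (median 4.04), 39 by at least 2-fold. Ccnb1, cyclin B1 of mitotic entry, had 177, 186, 167 and 164 CPM in vehicle 48 h libraries and 3.13, 2.46, 4.38 and 2.43 CPM in unstimulated libraries (5.80 ± 0.17, edgeR adjusted p = 4.65e-16). Mcm10, which starts replication forks, had 182, 187, 159 and 175 CPM in vehicle 48 h libraries and 4.19, 4.99, 6.82 and 4.75 CPM in unstimulated libraries (5.09 ± 0.17, edgeR adjusted p = 3.96e-15). In both genes the groups were well apart, and the unstimulated libraries differed more from each other in proportion than the activated ones. Ccna2 (5.02), Plk1 (5.02), Aurkb (4.98) and Cdk1 (4.97) were close behind. Regulators of the step before, in G1, were divided with 9 up and 10 down of 21, against 38.3% and 45.1% of all genes. Their median of 0.22 was −0.05 with library totals as the scale and −0.15 without vehicle 48 h library C. Cdk4 (2.06), Cdk2 (1.74) and Ccnd2 (1.86), the kinases and D cyclin that push a cell out of G1, rose, and Cdkn1b, the inhibitor p27 of resting T cells, fell to 27.9 ± 2.85 CPM in vehicle 48 h libraries, against 309 ± 18.5 CPM in unstimulated libraries (−3.47 ± 0.12). Btg1, Btg2 (−3.17) and Tob1 (−2.77), antiproliferative partners of the mRNA deadenylase, fell too. Cdkn1a, the inhibitor p21, rose by 3.86 ± 0.24, and Ccng1, a p53 target, by 2.56 ± 0.15.

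Promoters of 2 of these genes are printed for the elements that cell cycle genes carry. In Plk1 (chr7:122159185-122159484, plus strand) the capitals mark TTTGAA, the cell cycle genes homology region (CHR) of late cell cycle promoters, and in Mcm10 (chr2:5012742-5013041, minus strand) they mark 3 copies of CCAAT, the site of the factor NF-Y.
Plk1: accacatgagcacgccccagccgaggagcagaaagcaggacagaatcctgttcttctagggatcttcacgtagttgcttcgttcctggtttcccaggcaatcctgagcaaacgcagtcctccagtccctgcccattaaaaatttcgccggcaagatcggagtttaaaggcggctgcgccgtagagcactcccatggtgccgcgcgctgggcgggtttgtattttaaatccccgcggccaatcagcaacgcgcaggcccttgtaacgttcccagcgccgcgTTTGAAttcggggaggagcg
Mcm10: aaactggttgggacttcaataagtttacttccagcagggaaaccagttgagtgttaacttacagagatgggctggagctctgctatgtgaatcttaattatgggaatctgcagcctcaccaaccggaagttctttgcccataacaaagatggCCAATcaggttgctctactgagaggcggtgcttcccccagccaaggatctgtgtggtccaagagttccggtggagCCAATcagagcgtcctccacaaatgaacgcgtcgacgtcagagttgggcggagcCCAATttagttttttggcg
On both strands TTTGAA was found in 18.1% of all promoters, in 12.5% of those of tested genes and in 14 of the 31 that matched the replication and mitosis list. CCAAT was found in 37.9% and 38.7% of these and in 23 of the 31, so each is a common sequence. Both starts lay under an H3K27ac peak of vehicle 48 h cells.

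Supply of building blocks rose with replication. Nucleotide synthesis genes were higher in 27 of 30 and lower in 1 (median 2.08). Rrm2, the regulated subunit of ribonucleotide reductase, had 466, 479, 422 and 437 CPM in vehicle 48 h libraries and 11.3, 11.9, 18.3 and 9.50 CPM in unstimulated libraries (5.14 ± 0.24, edgeR adjusted p = 2.62e-12), a gap wider than any spread within a group. Tk1 (4.40), Tyms (3.92), Rrm1 (3.88) and Dut (3.64) rose as well, and Ctps2 (−1.24), one of the CTP synthases, was the gene that fell. For amino acid transport and glutamine use, 20 of 24 genes rose and 3 fell (median 1.32). Slc7a5, the large neutral amino acid transporter, had 587 ± 36.9 CPM in vehicle 48 h libraries and 54.02 ± 7.16 CPM in unstimulated libraries (3.44 ± 0.13), and Gls2 (4.87), Gpt2 (4.57), Asns (4.41) and Psat1 (4.20) rose more steeply. The falls were those of the transporter Slc38a2 (−0.96), of Glul (−0.34), which makes glutamine, and of Gclc (−0.18), the first of glutathione synthesis, whose call was lost in several of the alternative fits, and without the low-count filter Glul did not pass the test either (−0.16). In serine and one-carbon metabolism 16 of 18 genes rose, and 2 fell, or 1 in several alternative fits (median 2.16). Mthfd2, a mitochondrial folate enzyme, had 354, 351, 349 and 354 CPM in vehicle 48 h libraries and 22.4, 22.1, 24.8 and 18.4 CPM in unstimulated libraries (4.00 ± 0.09, edgeR adjusted p = 1.35e-17). Its 4 activated libraries were nearly equal, and Shmt1 (4.05), Phgdh (2.85) and Cth rose beside it.

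Glycolysis and lactate genes rose in 22 of 24 and fell in 2 (median 2.17). Hk2, the inducible hexokinase, had 257, 247, 226 and 241 CPM in vehicle 48 h libraries and 6.07, 8.34, 7.5 and 7.72 CPM in unstimulated libraries (5.04 ± 0.11, edgeR adjusted p = 7.14e-18). The lactate exporter Slc16a3 rose by 6.32 ± 0.21, and Tpi1 (4.49), Pgam1 (3.81), Ldha (3.26) and Pgk1 (3.16) followed. Pdk1 (−0.64), the kinase that closes pyruvate dehydrogenase, and Pfkfb4 (−0.66) were lower. Oxidative genes rose as widely but less steeply. In the TCA cycle 23 of 24 rose and none fell (median 1.27), with Pcx (2.06), Fh1 (1.87), Sdhd (1.81) and citrate synthase Cs (1.68) in the lead, and Idh2 did not pass the test (−0.14 ± 0.14, edgeR adjusted p = 0.348). Among nuclear genes of the respiratory complexes 37 of 38 rose and none fell (median 1.19), within a range of 0.34 to 1.93 on the log2 scale. Atp5b, the catalytic subunit of ATP synthase, had 2565, 2451, 2914 and 2561 CPM in vehicle 48 h libraries and 822, 811, 909 and 764 CPM in unstimulated libraries (1.67 ± 0.07, edgeR adjusted p = 6.37e-14). Several small subunits, such as Uqcrq at 241 ± 109 CPM in vehicle 48 h libraries and 82.4 ± 9.56 CPM in unstimulated libraries, and Atp5g1 (1.93), varied widely among the activated libraries.

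Lipid synthesis was among the strongest metabolic changes. Of 33 genes of cholesterol and fatty acid synthesis and handling 29 rose and 3 fell (median 2.27). Scd1, a desaturase that makes monounsaturated fatty acids, had 73.0, 78.7, 59.6 and 73.1 CPM in vehicle 48 h libraries and 0.512, 0.842, 0.316 and 1.78 CPM in unstimulated libraries (6.42 ± 0.54, edgeR adjusted p = 2.57e-08). Scd2 had 1012, 1093, 813 and 1012 CPM in vehicle 48 h libraries and 30.2, 25.7, 31.2 and 27.9 CPM in unstimulated libraries (5.09 ± 0.13, edgeR adjusted p = 5.38e-17). Both were far higher in every activated library, and the unstimulated values of Scd1 were themselves uneven. Fads2 (4.92), Idi1 (4.65) and Cyp51 (4.38), a desaturase and steps of sterol synthesis, rose, while the sterol exporters Abcg1 (−1.94) and Abca1 (−1.70) and the gene Acacb (−1.20) fell. Fatty acid oxidation and lysosome genes showed no common direction (9 up, 11 down and 4 not passing of 24, median −0.15). Within that list the autophagy genes Map1lc3b (−2.51) and Sqstm1 (−1.91) and the lysosomal lipase gene Lipa (−1.51) fell, while Gabarapl1 (overlapping, 1.90), Cpt2 (1.595) and Acadl (1.19) rose.

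Genes of folding and stress in the endoplasmic reticulum rose in 15 of 20 and fell in 3 (median 1.37). Chac1 (4.77) and Trib3 (3.49), both induced by ATF4, and the chaperone partner Sdf2l1 (3.14) led. Dnajb9 fell to 5.74 ± 0.716 CPM in vehicle 48 h libraries, against 139 ± 7.94 CPM in unstimulated libraries (−4.59 ± 0.11), as did Ddit3 (−1.06), so that members of the same stress response moved in both directions. Apoptosis genes and p53 targets were divided, with 13 up and 8 down of 26 (median 0.32, against 38.3% and 45.1% of all genes). Bcl2l1, the survival factor BCL-XL, had 189, 178, 197 and 183 CPM in vehicle 48 h libraries and 12.2, 11.4, 13.1 and 13.04 CPM in unstimulated libraries (3.90 ± 0.07, edgeR adjusted p = 1.90e-18). All 4 activated libraries lay far above all 4 resting ones. The proapoptotic BH3-only genes Bbc3 (−3.29) and Bcl2l11 (−2.46) fell, as did Cflar (−1.90), which blocks caspase 8, and the p53 target Phlda3 rose by 5.56 ± 0.26.

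Chromatin and DNA methylation enzymes were evenly split, 15 higher and 14 lower of 30 (median 0.42, against 38.3% and 45.1% of all genes). The rises were in genes that copy or silence chromatin in dividing cells: Hells (4.77), Uhrf1 (4.43), Chaf1a (overlapping, 4.23) and Ezh2, the H3K27 methyltransferase, with 624, 667, 483 and 573 CPM in vehicle 48 h libraries and 39.4, 38.5, 45.1 and 39.3 CPM in unstimulated libraries (3.85 ± 0.10, edgeR adjusted p = 4.72e-17). Ezh1, its counterpart in resting cells, fell to 21.96 ± 1.17 CPM in vehicle 48 h libraries, against 82.7 ± 4.03 CPM in unstimulated libraries (−1.91 ± 0.06). The H3K27 demethylase gene Kdm6b (−2.67), the H3K4 methyltransferase gene Kmt2d (−2.12) and Hdac9 (−5.58) also fell.

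Interferon-stimulated genes had the lowest median of the 28 lists: 30 of 32 fell and 2 rose (median −2.79), 26 falling by at least 2-fold. Ifi213 had 0.258, 0.675, 0.370 and 0.434 CPM in vehicle 48 h libraries and 179, 212, 164 and 169 CPM in unstimulated libraries (−8.69 ± 0.21, edgeR adjusted p = 4.32e-17). Irf7, the factor that amplifies type I interferon, had 2.16, 2.58, 3.05 and 3.04 CPM in vehicle 48 h libraries and 112, 169, 123 and 90.4 CPM in unstimulated libraries (−5.52 ± 0.23, edgeR adjusted p = 1.58e-13). The antiviral gene Ifit3 had 0.352, 0.275, 0.401 and 0.318 CPM in vehicle 48 h libraries and 16.2, 50.7, 21.6 and 10.9 CPM in unstimulated libraries (−6.20 ± 0.50, edgeR adjusted p = 9.39e-09). All activated libraries were below all resting ones in the 3 genes, and unstimulated library B was the highest of its group for Ifi213, Irf7 and Ifit3. Oas2 (−6.77), Rtp4 (−5.88) and Oasl2 (−5.74) fell as far, while Bst2 rose (1.17 ± 0.19). The list had 1 rise in place of 2 with library totals as the scale or without unstimulated library D. Antigen presentation genes were divided, 8 up and 10 down of 20 (median −0.20, and −0.40 without vehicle 48 h C and unstimulated D together). The shares of all genes were 38.3% and 45.1%. The class I genes H2-Q4 (−2.29), H2-Q7 (−2.17) and H2-Q6 (−1.94), near copies whose reads may be shared, fell with H2-K1 and H2-D1, and the chaperones Canx (1.91), Pdia3 (1.62) and Calr (1.33) rose. The start of Ifi213 (RefSeq, GRCm38.p6, chr1:173599223-173599522, minus strand) is shown as that of the most reduced member. Capitals mark GAAANNGAAA, the core of the element that interferon-activated factors bind.
Ifi213: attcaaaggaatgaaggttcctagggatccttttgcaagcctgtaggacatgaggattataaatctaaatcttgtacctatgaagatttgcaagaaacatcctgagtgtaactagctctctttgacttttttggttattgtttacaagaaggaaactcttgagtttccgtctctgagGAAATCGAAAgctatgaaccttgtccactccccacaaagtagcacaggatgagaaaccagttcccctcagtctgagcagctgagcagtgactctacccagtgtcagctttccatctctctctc
The same core, on either strand, was found in 3.52% of all promoters, in 3.24% of those of tested genes and in 12 of the 22 that matched the interferon list. No vehicle 48 h H3K27ac peak lay at this start.

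Markers of other cells changed with the comparison and mostly fell. B cell markers fell in 13 of 18 with none higher, and their summed share of counts was 0.0512 to 0.0568% in vehicle 48 h libraries and 0.189 to 0.227% in unstimulated libraries (exact permutation test, 2-sided, p = 0.0286, adjusted over 7 lists 0.0286, the smallest p that 4 against 4 allows). Ms4a1 and Cr2, defining genes of B cells, had 0 counts in all 4 vehicle 48 h libraries. Myeloid markers fell in 16 of 17 with none higher (0.00494 to 0.00814% of counts in vehicle 48 h libraries, 0.00832 to 0.0257% in unstimulated libraries), and S100a8 and S100a9 were at 0 in all vehicle 48 h libraries. Mpo, a granule enzyme of myeloid precursors, had 0.141, 0.225, 0.339 and 0.0868 CPM in vehicle 48 h libraries and 31.3, 16.2, 124.9 and 14.0 CPM in unstimulated libraries, so that unstimulated library C held most of it. Platelet and stromal markers fell in 7 of 7 (0.00118 to 0.00145% of counts in vehicle 48 h libraries, 0.0158 to 0.0165% in unstimulated libraries), and erythroid markers in 10 of 11, the other being the transferrin receptor Tfrc (790.3 ± 223 CPM in vehicle 48 h libraries and 101 ± 4.24 CPM in unstimulated libraries), which dividing cells also make and which put the summed erythroid share at 0.0458 to 0.0988% in vehicle 48 h libraries, against 0.0139 to 0.0149% in unstimulated libraries. CD4 T cell markers rose in 5 of 7 (0.133 to 0.171% of counts in vehicle 48 h libraries, 0.00626 to 0.00719% in unstimulated libraries). Il2ra, Ctla4 and Tnfrsf4, which activated CD8 cells share, rose, and so did Zbtb7b and Izumo1r. Cd40lg (−2.20) and Foxp3 (overlapping) fell, and Foxp3 stayed under 0.915 CPM in every library. The source of the rises was not tested. CD8 T cell markers held 0.348 to 0.369% of counts in vehicle 48 h libraries and 0.667 to 0.697% in unstimulated libraries, with 8 of 10 lower and with Cd2 (0.32) and Thy1 (0.26) higher, 2 rises that did not pass the test with library totals as the scale (0.04 and −0.01), and Thy1 did not pass it without vehicle 48 h C and unstimulated D together (0.18). The part of these cells in the falls of immunoglobulin, interferon and antigen presentation genes was not tested.

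Fewer genes were at 0 in all unstimulated libraries than in all vehicle 48 h libraries. No count was seen in the 4 unstimulated libraries for 27 of the 18317 tested genes and in the 4 vehicle 48 h libraries for 258. Such genes passed the count filter only through other groups of the fit, so both counts depend on the filter. V segment genes fell in 210 of 218 tested, and their part in the 258 was not counted. Of the first kind, Otx1 was at least 37.5-fold higher in vehicle 48 h cells, taking 3 counts summed over the unstimulated group as the floor, and Gpr33, Shisal2b, Cryaa, Il3 (at least 14.0-fold) and Serpinb1b (at least 11.96-fold) followed at under 1 CPM. Il3 had been far higher before, with 56.4 ± 11.7, 56.1 ± 3.42 and 0.239 ± 0.151 CPM at 4, 24 and 48 h. Otx1 had 4.13 ± 0.833 CPM at 24 h and 0.622 ± 0.179 CPM at 48 h. Of the second kind, Ighg2b was at least 4046-fold lower, Iglc1 at least 1656-fold, Slpi, a secreted protease inhibitor, at least 438-fold and the amino acid transporter gene Slc38a5 at least 146-fold, and Iglc3 and Pde2a (both overlapping) were also at 0. Floors cover counting error only.

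Pairs of paralogs or opposed partners describe which member led in each group. Ratios of TPM were compared in 22 pairs, chosen with earlier results known. Of these, 20 differed between groups at the smallest p the design allows (exact permutation test, 2-sided, p = 0.0286, adjusted over pairs 0.0314). With pairs chosen in this way and 83.4% of genes changed, that count is not evidence about pairs in general. In 6 pairs the leading gene was the same in all 4 libraries of a group and differed between groups. The log2 ratio of Hk2 to Hk1 was 0.67 ± 0.13 in vehicle 48 h libraries and −4.06 ± 0.23 in unstimulated libraries, with Hk1 itself at 55.1 ± 7.30 TPM in vehicle 48 h libraries and 49.8 ± 3.99 TPM in unstimulated libraries. The rise of Hk1 (0.31) was 0.04 and did not pass the test when libraries were scaled by their totals. Bcl2l1 over Bcl2 was 1.19 ± 0.25 and −2.47 ± 0.11 in these groups, and Ezh2 over Ezh1 was 4.88 ± 0.14 and −0.87 ± 0.14. The widest turn was in cytokine receptors, where Il2ra over Il7r was 3.99 ± 0.09 in vehicle 48 h libraries and −7.64 ± 0.21 in unstimulated libraries. Kif11 over Kif5b (mitotic and transport kinesins) and Id2 over Id3 also changed leader, whereas Rbl1 over Rbl2 (pocket proteins, Rbl2 overlapping) was 1.37 ± 0.06 in vehicle 48 h libraries and −0.04 ± 0.19 in unstimulated libraries, where neither led. Tbx21 over Tcf7 was −0.64 ± 0.24 in vehicle 48 h libraries and −7.03 ± 0.23 in unstimulated libraries, yet Tcf7 remained the higher of these at 48 h. In Slc16a1 over Slc16a3 (0.71 ± 0.55 in vehicle 48 h libraries and 4.52 ± 0.49 in unstimulated libraries) the minor paralog approached the major one. Rpl22l1 over Rpl22 did not reach the threshold (exact permutation p = 0.0571).

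**Figure D3:**
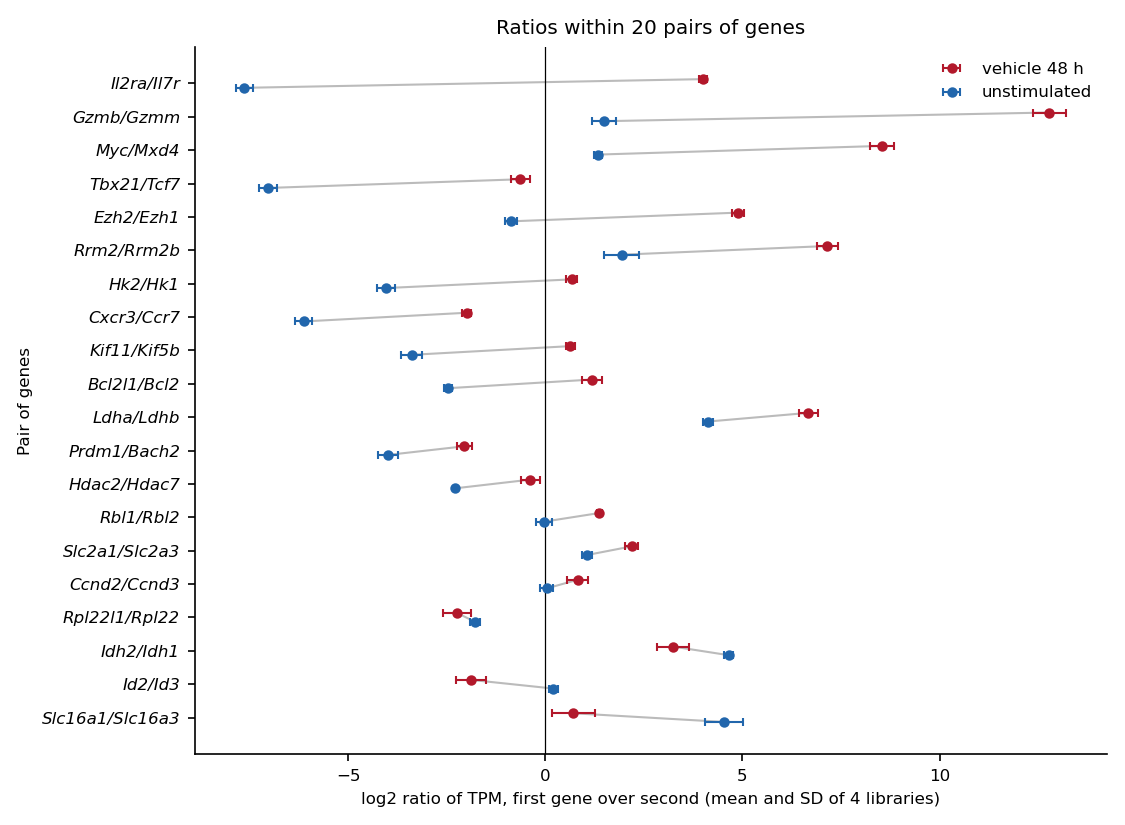
Log2 ratio of TPM within 20 of the 22 pairs of genes, mean and SD of 4 libraries, in vehicle 48 h (red) and unstimulated cells (blue), ordered by the difference. A red point right of 0 with its blue point left of 0 marks a change of leader, as for Il2ra over Il7r at 3.99 in vehicle 48 h and −7.64 in unstimulated cells.

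The state at 48 h was also set against vehicle libraries at 4 h and 24 h in the same fit. Comparisons with unstimulated cells at the 3 times share the unstimulated libraries, so times were tested directly against each other. From 4 h to 48 h, 6796 genes were higher (37.1%) and 7122 lower (38.9%) at the later time, and from 24 h to 48 h these were 2859 (15.6%) and 3085 (16.8%). Genes named for their time course were chosen after their values were seen. Replication was a late program: all 40 of its genes were higher at 48 h than at 4 h, against 37.1% of all genes. Of the 40, 8 were above unstimulated cells at 4 h, 40 at 24 h and 40 at 48 h. The share of all genes above unstimulated cells was not computed for 4 h and 24 h. Between 24 h and 48 h 9 went higher (15.6% of all genes) and none lower (16.8%). Ccnb1 had 3.10 ± 0.914 CPM in unstimulated cells and 2.09 ± 0.670, 163 ± 11.5 and 174 ± 10.2 CPM at 4, 24 and 48 h. The activation transcription factors ran in reverse, with 19 of 28 lower at 48 h than at 24 h and 3 higher. Nr4a1, an immediate early nuclear receptor gene, had 201 ± 19.2 CPM in unstimulated cells and 2579.5 ± 162, 170.1 ± 19.8 and 41.3 ± 4.84 CPM at 4, 24 and 48 h. At the last time it lay below the resting level. Egr2 differed by −2.27 ± 0.07 and Rel by −2.05 ± 0.12 between 48 h and 24 h (edgeR adjusted p = 2.88e-14 and 1.87e-10).

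Transcripts of several effector genes were past their highest level by 48 h. Of 26 cytokine and chemokine genes 16 were lower at 48 h than at 24 h and 3 were higher. Ifng had 2.95 ± 0.931 CPM in unstimulated cells and 723 ± 107, 586 ± 144 and 21.1 ± 6.13 CPM at 4, 24 and 48 h, and Il2 had 0.0879 ± 0.0301 CPM in unstimulated cells and 131 ± 15.6, 65.2 ± 8.94 and 0.365 ± 0.203 CPM at these times. Xcl1 changed by −4.36 ± 0.12 from 24 h to 48 h. Prf1, perforin, was 2.48 above unstimulated cells at 24 h on the log2 scale and −0.85 at 48 h (difference between times −3.34 ± 0.10, edgeR adjusted p = 1.75e-14), whereas Gzmb at 48 h was within its spread of 24 h (0.11 ± 0.14, edgeR adjusted p = 0.589). The granzyme gene and the perforin gene therefore parted between 24 h and 48 h. Interferon-stimulated genes went down further, 22 of 32 lower at 48 h than at 24 h and none higher. Isg15 was called up at 24 h (1.35) and down at 48 h (−1.79), a difference of −3.13 ± 0.37 (edgeR adjusted p = 8.24e-06). Moving the other way, 16 of 26 apoptosis genes and p53 targets were higher at 48 h than at 24 h and 6 lower, and 12 of 33 cholesterol and fatty acid genes were higher and 3 lower. Socs2 rose most within the inhibitory list, by 4.12 ± 0.29 from 24 h to 48 h, and Tnfrsf8 within the costimulatory list, by 4.10 ± 0.23. In the naive and memory list 5 of 24 genes were higher at 48 h than at 24 h and 9 were lower. Il7r, among the higher ones, was −3.53 against unstimulated cells at 24 h and −2.38 at 48 h (difference 1.14 ± 0.19, edgeR adjusted p = 1.60e-04). Ltb, of the cytokine list, was −5.23 and −1.63 at these times.

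**Figure D4:**
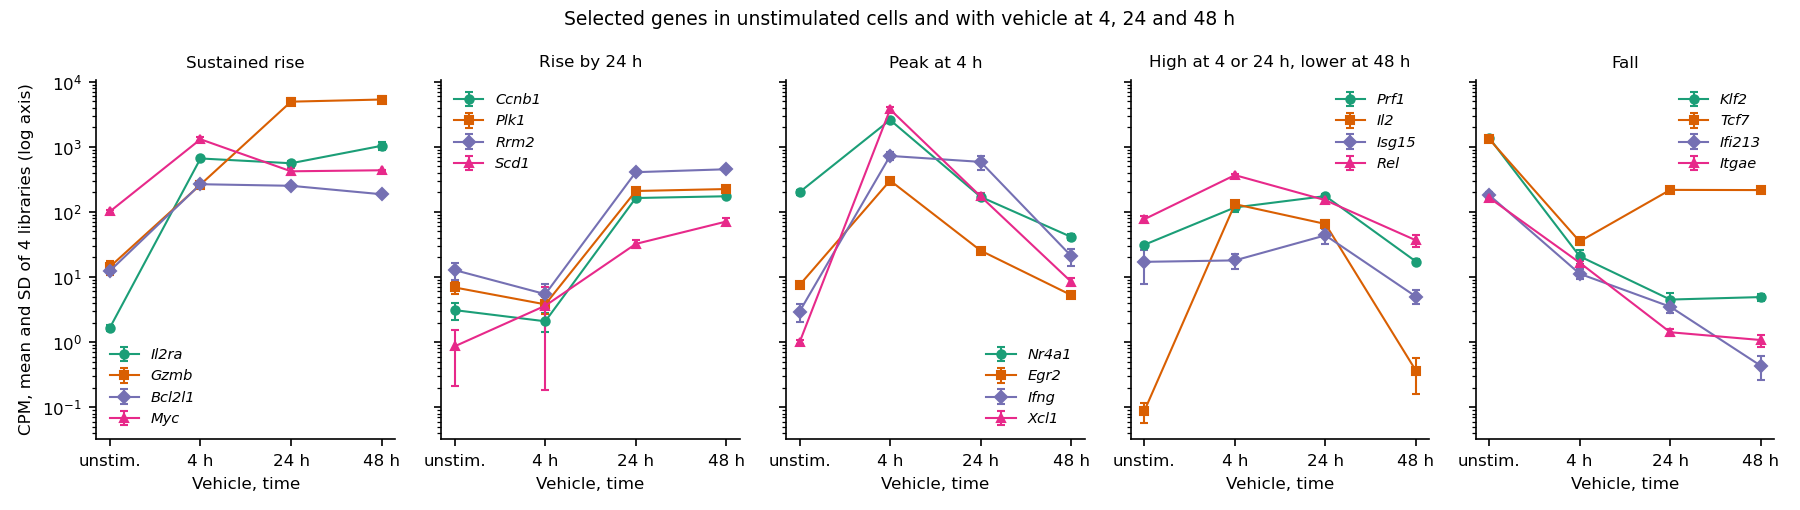
Mean CPM (log axis, bars for the SD of 4 libraries) of 20 genes in unstimulated cells and with vehicle at 4, 24 and 48 h, in 5 panels by the shape of their course. Il2ra and Gzmb stay high to 48 h, Ccnb1 and Plk1 rise between 4 h and 24 h, Nr4a1 and Ifng are highest at 4 h, and Klf2 is low from 4 h on.

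Deposited CUT&RUN peaks, made from 2 merged replicates of vehicle 48 h cells for each mark, gave a second readout of the activated state. The series holds no CUT&RUN sample of unstimulated cells, so the marks describe the end state and not a change, and with 1 list per mark there is no replicate error. The lists held 9681 peaks of H3K27ac and 13556 of H3K27me3, a mark of Polycomb repression. A peak was assigned to a gene if it came within 1000 bases of its start. Of protein-coding genes that rose by at least 4-fold, 660 of 1367 (48.3%) had an H3K27ac peak at the start, against 280 of 2165 (12.9%) of those that fell by at least 4-fold and 41.4% of those not called. For H3K27me3 the shares were 15.95% of genes up by at least 4-fold, 33.4% of genes down by at least 4-fold and 17.0% of those not called. Genes that fell by at least 4-fold carried fewer active and more repressive marks in the activated cell. The classes were not matched for RNA level at 48 h, the state in which the peaks were taken. Genes that fell could pass the count filter through the unstimulated libraries alone. These shares therefore cannot separate the direction of change from the level at 48 h. Genes that fell include markers of other cells, with H3K27me3 at 4 of 13 falling B cell markers and 5 of 16 falling myeloid ones. The mark lay at 0 of 16 falling T cell receptor and proximal signaling genes, 3 of 22 naive and memory genes and 7 of 14 effector differentiation factors. The part of other cells in these shares was not tested. The relation was not monotonic on the side of the rises: H3K27ac was at 56.1% of starts for log2 fold changes of 1 to 2 and at 39.4% for those over 4, while H3K27me3 was at 8.82% and 19.0%.

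**Figure D5:**
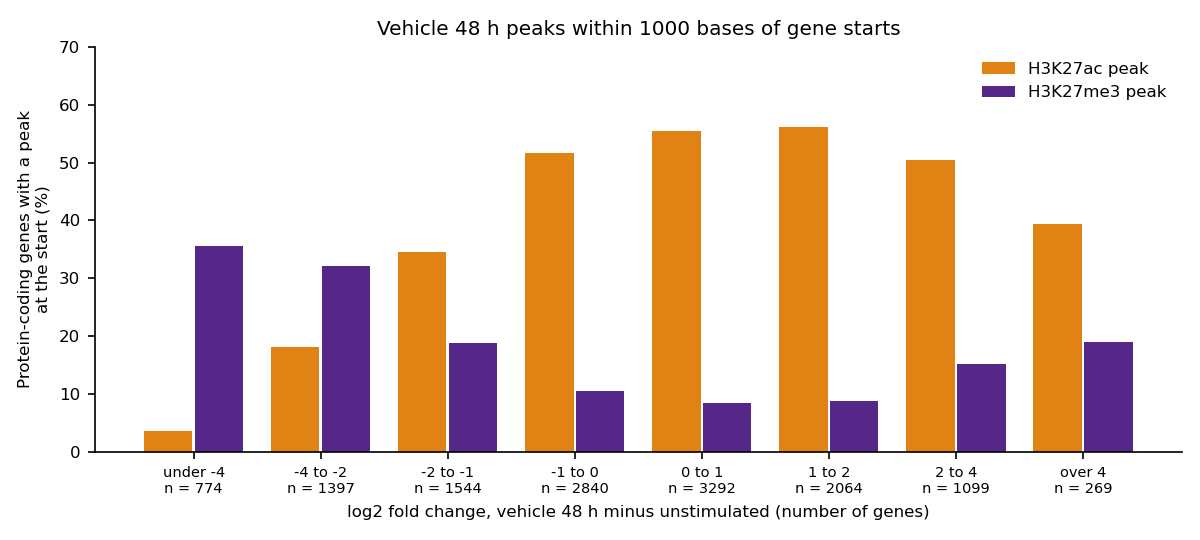
Share of protein-coding genes with a vehicle 48 h H3K27ac (orange) or H3K27me3 (purple) peak within 1000 bases of the start, by the log2 fold change of their RNA in vehicle 48 h against unstimulated cells, with the number of genes under each bin. H3K27ac is lowest (3.62%) and H3K27me3 highest (35.7%) in the bin of the largest falls.

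Some gene groups had an active mark where RNA fell. Among all genes that fell, 30.2% had an H3K27ac peak and 15.3% an H3K27me3 peak at the start. All 20 T cell receptor and proximal signaling genes had an H3K27ac peak at the start and none had H3K27me3, including the 16 that fell. Of 15 activation transcription factor genes that fell, 13 had the active mark, among them Jun, Fosl2 and Nr4a1, and Egr2 had both marks. Among 22 falling naive and memory genes 14 had H3K27ac, among them Tcf7, Ccr7, Il7r and S1pr1, while Klf2 and Cd7 did not, and Ccr9 (overlapping) had H3K27me3. Interferon-stimulated genes had H3K27ac at 8 of the 30 that fell, about the share of all falling genes. In the list of effector differentiation factors, 8 of 23 starts carried H3K27me3 (12.2% of all genes tested). These included Eomes, Prdm1, Id2 and Maf, of which Prdm1 was higher in RNA. Replication genes, all of which rose, had H3K27ac at 28 of 40 and H3K27me3 at 0 of 40 starts. Among all genes that rose the shares were 48.1% and 8.27%.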

How the data were processed

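Per the file headers, the authors' read counts per gene come from featureCounts 2.0.1, run on filtered paired alignments without a strand option over the exons of GENCODE M25 (mm10). The submitters' processing notes name STAR and Bowtie2 without versions. Peak lists deposited by the authors merge 2 CUT&RUN replicates at an IDR (irreproducible discovery rate) of 0.05. Each peak carries a deposited score, a deposited signal and the deposited −log10 of its IDR, and only positions and the IDR were used here.

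Genes passing filterByExpr were fitted with edgeR 4.0.16 (R 4.3.3, TMM scaling, robust quasi-likelihood test) over 16 libraries: unstimulated and vehicle 4, 24 and 48 h, 4 each. The contrast was vehicle 48 h minus unstimulated, called at a Benjamini-Hochberg adjusted p under 0.05 over all genes tested. Scripts were tested on simulated counts, and single values used exact permutation tests in SciPy 1.17.1. TPM was computed from counts and the exon lengths of the table. Libraries held 32.6 to 48.3 M counts, and precision is lowest for genes well under 1 CPM. DESeq2 1.42.0, other scalings, filters and library sets were tried as alternatives. Letters A to D did not pair libraries (correlations of same-letter deviations −0.03, 0.20, 0.18 and 0.05).

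Genes to name were those with a known symbol that were called, averaged at least 3 on the log2 CPM scale and did not overlap between groups, taking the 12 largest rises, falls, gains and losses in CPM. They also comprised up to 6 members of each list by size of change, up to 3 against its majority, the paired genes, the genes at 0 in a whole group and cell markers. The gene groups and lists were chosen with earlier results of these data known. The drug-treated libraries were not compared here, and some genes, with 2 of the pairs, are not reported.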

Additional observations from a re-analysis of the deposited data

Results flagged for a closer look

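Among 140 groups of 4 values examined, 10 held a library that stood far from the other 3 by Dixon's test. In 3 of these the other libraries were at 0, so that any count met the criterion. The remaining 7 of 137 groups are near the 1 in 20 that chance gives, and in 4 of them the library was vehicle 48 h C. The most abundant 738 genes made up 50% of its counts, where this took 871 to 895 genes in vehicle 48 h A, B and D. It was also the highest of its group for Batf3 (291 CPM) and the lowest for Tcf7 (189 CPM) and Ezh1 (20.2 CPM), and it alone had a count of Ncr1 (0.0308 CPM) and of Aqp1 (0.0925 CPM). In unstimulated cells, library D had 15209 genes at 1 CPM or more and alone had counts of Gzmf (0.0516 CPM). Unstimulated library C was the highest for Ezh2 (45.1 CPM) and for Mpo (124.9 CPM, against 14.0 to 31.3 CPM in the others). Batf3, Tcf7, Ezh1, Ezh2 and Mpo, which had counts in all 8 libraries, kept their call when any 1 of the 8 was left out.

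Of 257 named genes, 11 were called in opposite directions against unstimulated cells at 24 h and at 48 h. Listing also required a difference between these times that passed edgeR's test (adjusted p from 1.75e-14 to 8.24e-06). Named genes were chosen in part by size of change, and the share over all tested genes was not computed. Genes above unstimulated cells at 24 h and below them at 48 h were Ccl9 (3.19 and −1.61 on the log2 scale at 24 h and 48 h), Prf1 (2.48 and −0.85), Egr2 (1.76 and −0.51), Isg15 (1.35 and −1.79), Rel (0.97 and −1.07), Cd226 (0.56 and −1.14) and Eomes (0.34 and −0.52). Genes below at 24 h and above at 48 h were Bcl2 (−1.20 and 0.25), Cd2 (−0.90 and 0.32), Prdm1 (−0.70 and 1.00) and Thy1 (−0.66 and 0.26). The rises of Bcl2, Cd2 and Thy1 at 48 h did not pass the test with library totals as the scale.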

How the results depend on the processing

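With no low-count filter 13259 genes fell and 16937 changed by at least 2-fold, against 8255 and 10418, a setting that adds genes of few counts. The other counts of changed, rising and falling genes stayed within 1.5 times, and leaving out 1 library at a time gave 15154 to 16029 changed genes. Over all genes the median log2 fold change moved with the setting: −0.23 with RLE size factors and with DESeq2, −0.44 with library totals, −0.93 with no filter, −0.0643 and −0.31 when the 8 compared or all 52 libraries were fitted, −0.17 without vehicle 48 h C and unstimulated D together (chosen after seeing the data), and −0.24 to −0.14 without 1 library. Library totals lowered it by 0.28, with 5914 rises and 9554 falls against 7022 and 8255. With the replicate block 15224 genes changed (median −0.17), and among the 8 libraries alone the block gave a median of −0.0715. Since the letters do not pair the libraries, these are alternatives only. Of 255 named genes called, 12 lost the call or turned in at least 1 of 17 alternatives. With library totals Bcl2 (−0.024) and Thy1 (−0.014) turned and Cd2, Hk1, Id3 and Kif5b lost the call, with no filter Gclc turned (0.001), and S100a8 and S100a9 lost it without unstimulated library C. The G1 list median of 0.22 was −0.05 with library totals and −0.15 without vehicle 48 h C. The difference in H3K27me3 between strong rises and falls was −13.2 percentage points at an IDR of 0.01 against −17.4, and the H3K27ac list held no peak at that threshold. The causes were not tested. Depth limits genes well under 1 CPM, where a few counts set the fold.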

Other observations

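Without immunoglobulin and MHC class II genes, 11 B cell markers held 0.000299 to 0.000442% of counts in vehicle 48 h libraries and 0.00232 to 0.00260% in unstimulated libraries. Of the 257 named genes, 52 were called in opposite directions against unstimulated cells at 4 h and at 48 h, beside the 11 at 24 h. The share over all tested genes was not computed for either time.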
